A study of Mus musculus with 54 samples.

Results

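The genes described here are 10 transcripts widely used as signs of reactive astrocytes: Gfap, Vim, Serpina3n, Lcn2, Cp, Hspb1, Cd44, Osmr, Timp1 and Stat3. They were taken by name from 3 expression tables of mouse whole cerebellum. All 10 had a row among 19432 genes at postnatal day 28 (P28) and among 19232 genes at postnatal day 5 (P5), and 9 had one among 17827 genes at 9 weeks, where Lcn2 had no log2 CPM row. RNA sequencing gave 54 libraries. The P28 set held 5 libraries each of the RnaseH2B,Atm double genotype (called Rnaseh2b/Atm here), RnaseH2B, Atm and Control. At P5 there were 4 Rnaseh2b/Atm, 4 RnaseH2B,p53 (Rnaseh2b/p53), 3 Rnaseh2b, 3 Atm, 3 p53 and 3 Control libraries. At 9 weeks there were 7 Rnaseh2b and 7 Control libraries. Every mutant genotype carries Nes-cre, a recombinase under the Nestin promoter that acts in neural progenitors and so reaches neurons and macroglia, but not microglia, which have another origin. The labels do not say which alleles or transgenes the Control mice carry, nor whether each replicate is its own animal. P-values therefore cover only the spread between these libraries, part of which may be technical. P28 libraries were poly-A selected while the others were made from total RNA, and no value was compared between ages by a test.

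Rnaseh2b encodes a subunit of ribonuclease H2, an enzyme that clears ribonucleotides out of DNA. The Atm kinase responds to DNA breaks, and p53 is a transcription factor of the DNA damage response. When nervous tissue is injured or inflamed, astrocytes enlarge, build more intermediate filament and switch on secreted and acute phase genes, a state called reactive astrogliosis. In the cerebellum the astrocyte lineage includes Bergmann glia, whose fibres span the molecular layer, and astrocytes of the granule layer and white matter. Cytokines of the interleukin-6 family act through gp130 receptors, of which Osmr is a subunit, and through the transcription factor Stat3, which is needed for full induction of Gfap after injury. Several of the 10 genes are also expressed by other cells, such as Vim, Timp1 and Cd44 in meningeal and vascular cells.

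The upstream regions of a pair of members are shown because their letters hold motifs of factors named for these genes, Stat3 for Gfap and the heat shock factor for Hspb1. RefSeq windows running from 250 bases before to 50 bases after each start (build GRCm38.p6) were found for all 10 members, in 11 windows. In the Gfap window, chr11:102897151-102897450 on the minus strand, capitals mark TTCNNNGAA, the STAT factor motif, whose first base lies at -2 from the start. In the Hspb1 window, chr5:135887669-135887968 on the plus strand, capitals mark GAANNTTC, one form of the heat shock element, with first bases at -117 and -97.
Gfap: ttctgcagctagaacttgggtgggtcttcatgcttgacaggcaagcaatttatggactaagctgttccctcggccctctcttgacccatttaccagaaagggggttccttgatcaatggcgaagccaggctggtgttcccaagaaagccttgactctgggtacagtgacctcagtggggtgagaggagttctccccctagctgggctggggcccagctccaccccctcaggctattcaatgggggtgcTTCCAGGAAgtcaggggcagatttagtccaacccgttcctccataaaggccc
Hspb1: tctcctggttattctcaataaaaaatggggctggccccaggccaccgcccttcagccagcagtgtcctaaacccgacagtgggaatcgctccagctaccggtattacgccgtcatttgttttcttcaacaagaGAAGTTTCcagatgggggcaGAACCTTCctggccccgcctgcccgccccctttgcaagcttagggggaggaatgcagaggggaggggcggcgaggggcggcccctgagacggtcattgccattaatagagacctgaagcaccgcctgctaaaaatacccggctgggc
TTCNNNGAA reads the same on both strands and was present in 8.3% of all 32851 windows. GAANNTTC and TTCNNGAA, also each their own reverse complement, were searched together and were present in 15.1%. Among the 10 members, 1 had the STAT motif and 1 the heat shock element, and neither count says whether a factor binds.

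Measured per length in FPKM, Vim and Gfap were the most abundant members in control cerebellum. At P28 the Control medians were 55.4 for Vim, 33.3 for Gfap, 10.9 for Serpina3n, 5.77 for Stat3, 4.0 for Hspb1, 1.72 for Cp, 1.26 for Timp1, 1.08 for Cd44, 0.289 for Osmr and 0.121 for Lcn2. Neighbours in this order whose Control ranges overlapped were Serpina3n with Stat3 and Timp1 with Cd44, and Serpina3n ran from 0.983 to 11.4. At P5 the Control medians of Vim and Gfap were 120 and 41.3 FPKM. At 9 weeks the deposited FPKM table holds values below 0, so its scale is not a plain FPKM, and Vim and Gfap still stood first with medians of 41.4 and 20.7. Vim and Gfap encode the intermediate filament proteins of the astrocyte cytoskeleton.

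Depth and labels were checked before the comparisons. Depth in genes ranged from 24.1 to 89.7 M reads at P28 and from 48.2 to 95.1 M reads at P5, apart from Rnaseh2b/p53 replicate 3 with 711 M. Depth at 9 weeks is unknown. Rnaseh2b log2 CPM was lower in every library with the Rnaseh2b genotype than in every Control library of its age, and Trp53 was lower in every p53 and Rnaseh2b/p53 library at P5. Atm RNA at P28 was not lower in libraries labelled Atm, at 4.60 to 4.97 log2 CPM against 4.79 to 4.94 in Control. Rnaseh2b/Atm libraries had 3.97 to 4.10. The labels do not say which part of Atm is altered, so its RNA level cannot show in either genotype whether Atm function was lost. At P5 Atm overlapped Control in both genotypes, with 5.28 to 5.70 in Rnaseh2b/Atm and 5.03 to 6.0 in libraries labelled Atm, against 5.35 to 6.22. The defining astrocyte and Bergmann glia genes were present, with 16 of 16 listed genes in each table and a summed level of at least 2330 CPM in every library. In whole tissue, fewer cells of a type and less RNA per cell cannot be told apart.

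The largest differences among these genes came at P28 in Rnaseh2b/Atm cerebellum. Of 9 members tested by limma on log2 CPM (adjusted p below 0.05 over all genes), 7 were called against Control. Gfap, Serpina3n, Cp, Osmr, Timp1 and Stat3 rose and Cd44 fell. So many genes moved in this comparison that 63.6% of all 16530 tested genes were called, 31.5% higher and 32.1% lower. The 7 of 9 is therefore not far from the background of called genes. The median log2 difference of the 9 was 0.58, against -0.02 over all tested genes. In the same Rnaseh2b/Atm libraries, summed meningeal and fibroblast genes were at 689 to 935 CPM against 241 to 364 in Control, microglia genes at 253 to 329 against 160 to 178, and midbrain genes at 574 to 718 against 67.7 to 100. The midbrain sum includes Th, which alone may carry much of it. Of 7 tested midbrain genes 5 rose and 1 fell, with a median log2 difference of 2.04. The part of these lists in the members' differences was not tested. Set against libraries labelled Atm, 6 of 9 were called, 5 higher and 1 lower, where 61% of all genes were called, 30% higher and 31% lower. Against Rnaseh2b 8 of 9 were called, 7 higher and 1 lower, where 49.5% were called, 24.9% higher and 24.6% lower. The single genotypes gave no called member at the same age.

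Gfap was the filament gene that moved. It had 8.85, 9.20, 8.71, 9.58 and 8.99 log2 CPM in the Rnaseh2b/Atm libraries. It had 7.55, 7.66, 7.82, 8.09 and 6.87 in Rnaseh2b, 7.11, 6.80, 7.30, 6.37 and 6.87 in libraries labelled Atm, and 7.38, 6.63, 7.48, 7.15 and 6.89 in Control. The lowest Rnaseh2b/Atm library stood above the highest of the other 15, while those other groups overlapped one another. Against Control the log2 difference was 1.96 ± 0.22 (SE), a 3.89-fold rise (limma adjusted p = 2.84e-07). Against libraries labelled Atm it was 2.18 ± 0.22 (limma adjusted p = 7.13e-08), and against Rnaseh2b it was 1.47 ± 0.22 (limma adjusted p = 1.90e-05). In FPKM, Gfap averaged 131 ± 32.0 in Rnaseh2b/Atm and 33.1 ± 7.84 in Control (SD, n = 5 each).

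Vim, which encodes vimentin, did not move with Gfap. Its log2 CPM was 6.90, 6.54, 6.68, 6.70 and 6.69 in Rnaseh2b/Atm libraries, against 7.04, 6.75, 7.19, 7.03 and 7.0 in Control. All 5 Rnaseh2b/Atm libraries lay below the Control mean, but the ranges overlapped. The log2 difference was -0.30 ± 0.13 and missed the threshold (limma adjusted p = 0.0562). It was 0.02 ± 0.13 against libraries labelled Atm (limma adjusted p = 0.912).

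The secreted members followed, and among them Cp was the tightest. Cp encodes ceruloplasmin, a copper-carrying ferroxidase that astrocytes also display on their membrane. It had 5.43, 5.70, 5.53, 5.46 and 5.48 log2 CPM in Rnaseh2b/Atm libraries. It had 4.23 to 4.44 in Rnaseh2b, 4.17 to 4.47 in libraries labelled Atm, and 4.02, 4.27, 4.03, 4.21 and 4.06 in Control. The gap between the Rnaseh2b/Atm libraries and all others was wider than the spread inside any group. Cp rose 2.64-fold, a log2 difference of 1.40 ± 0.07 against Control (limma adjusted p = 1.22e-11). It rose likewise against libraries labelled Atm (1.25 ± 0.07, limma adjusted p = 6.07e-11) and against Rnaseh2b (1.19 ± 0.07, limma adjusted p = 2.56e-10).

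Serpina3n, a secreted serine protease inhibitor, had the largest log2 difference and the widest spread. It had 6.49, 6.62, 6.66, 5.94 and 6.55 log2 CPM in Rnaseh2b/Atm libraries. It had 1.57, 4.78, 1.95, 2.20 and 4.57 in Rnaseh2b, 5.47, 4.28, 5.40, 4.50 and 4.40 in libraries labelled Atm, and 1.57, 1.05, 4.52, 4.50 and 4.58 in Control. Libraries of Rnaseh2b and of Control fell at either of a pair of separate levels, and the Rnaseh2b/Atm libraries stood above both. Against Control the log2 difference was 3.21 ± 0.71 (limma adjusted p = 0.000597) and against Rnaseh2b it was 3.44 ± 0.71 (limma adjusted p = 0.000477). Against libraries labelled Atm, all of which sat at the upper level or above it, the difference was 1.64 ± 0.71 and missed the threshold (limma adjusted p = 0.0508). The size of the Serpina3n difference thus rests on how many libraries of the compared group lie at the low level.

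Timp1 and Lcn2 were scarce. Timp1, an inhibitor of metalloproteinases, had 0.45, 0.98, 0.49, 0.88 and 0.76 log2 CPM in Rnaseh2b/Atm libraries against 0.29, 0.19, 0.09, -0.12 and 0.22 in Control, with no overlap. The log2 difference was 0.58 ± 0.14 (limma adjusted p = 0.00134). It was 0.53 ± 0.14 against libraries labelled Atm (limma adjusted p = 0.00287), and 0.34 ± 0.14 against Rnaseh2b, close to the threshold (limma adjusted p = 0.0487). After quantile normalization Timp1 was called in none of the 3, with limma adjusted p of 0.0673, 0.301 and 0.477, and leaving out any 1 of 7 libraries also ended the last call.

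Lcn2 encodes lipocalin 2, an iron-siderophore binding protein that reactive astrocytes secrete. It did not pass the filter of 1 CPM in 5 libraries. The recovered reads were 57, 55, 55, 57 and 26 in Rnaseh2b/Atm libraries. They were 9, 15, 10, 14 and 27 in Rnaseh2b, 6, 1, 3, 28 and 9 in libraries labelled Atm, and 11, 11, 10, 17 and 16 in Control. As log2 CPM, every Rnaseh2b/Atm library (-0.65 to 0.10) was above every other library (-4.55 to -0.77). With no filter on low values the log2 difference against Control was 1.81 ± 0.47 (limma adjusted p = 0.00272).

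Hspb1, which encodes the small heat shock protein Hsp27, had a pattern of its own. It had 2.58, 2.15, 2.60, 2.78 and 2.41 log2 CPM in Rnaseh2b/Atm libraries. It had 1.39, 1.30, 1.49, 2.21 and 1.44 in Rnaseh2b, 1.60, 0.94, 1.86, 1.0 and 2.03 in libraries labelled Atm, and 2.0, 1.30, 2.52, 2.25 and 2.06 in Control. The double genotype overlapped Control but not the libraries labelled Atm. Its log2 difference was 1.02 ± 0.24 against libraries labelled Atm (limma adjusted p = 0.00107) and 0.94 ± 0.24 against Rnaseh2b (limma adjusted p = 0.00293), but 0.48 ± 0.24 against Control (limma adjusted p = 0.0871). In Rnaseh2b and in libraries labelled Atm the differences from Control were -0.46 ± 0.24 and -0.54 ± 0.24, neither of which passed (limma adjusted p = 0.227 and 0.262).

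The receptors moved in opposite directions. Osmr, the oncostatin M receptor subunit, had 2.57, 2.77, 2.56, 2.75 and 2.66 log2 CPM in Rnaseh2b/Atm libraries against 1.78, 2.02, 1.82, 1.79 and 1.96 in Control, with no overlap. It rose 1.73-fold (0.79 ± 0.10, limma adjusted p = 2.17e-06), and also against libraries labelled Atm (0.55 ± 0.10, limma adjusted p = 0.000136) and Rnaseh2b (0.54 ± 0.10, limma adjusted p = 0.00028). Cd44, the hyaluronan receptor, fell to 2.27, 2.62, 2.43, 2.89 and 2.39 log2 CPM in Rnaseh2b/Atm, against 3.0, 3.23, 2.90, 2.86 and 2.89 in Control. Replicate 4 alone reached into the Control range. The difference was -0.46 ± 0.13 (limma adjusted p = 0.00474), with -0.54 ± 0.13 against libraries labelled Atm (limma adjusted p = 0.00126) and -0.45 ± 0.13 against Rnaseh2b (limma adjusted p = 0.00773).

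Stat3, the transcription factor downstream of these cytokine receptors, changed little. It had 5.95, 5.98, 5.98, 5.95 and 5.92 log2 CPM in Rnaseh2b/Atm libraries against 5.77, 5.98, 5.80, 5.86 and 5.80 in Control. The ranges overlapped at Control replicate 2. The log2 difference of 0.12 ± 0.04, a 1.08-fold rise, was called (limma adjusted p = 0.023). The call was lost without Control replicate 1, 3 or 5, or when the other groups were left out of the fit (limma adjusted p of 0.0533 to 0.065). Against Rnaseh2b it was 0.16 ± 0.04 (limma adjusted p = 0.00492). RNA levels say nothing of Stat3 phosphorylation.

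**Figure D1:**
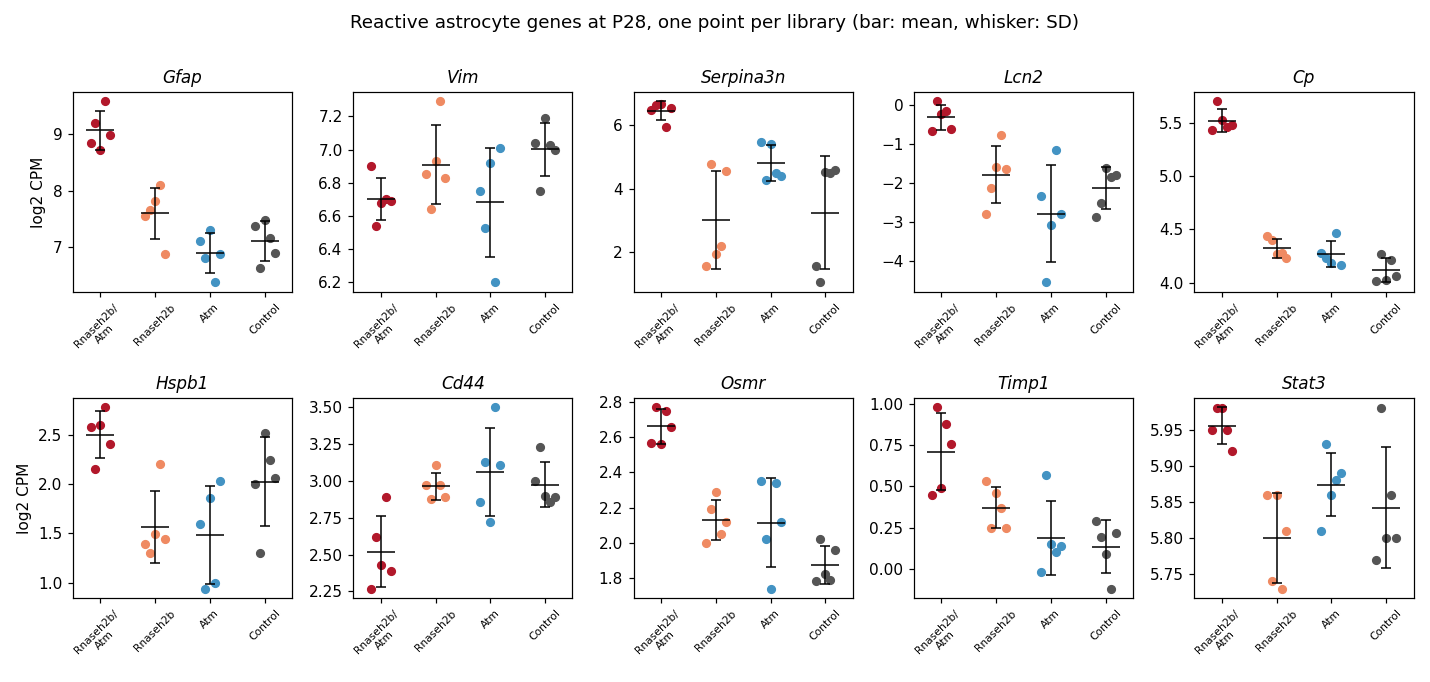
Log2 CPM of the 10 genes at P28, 1 point per library, for Rnaseh2b/Atm, Rnaseh2b, Atm and Control (5 libraries each), with the group mean as a bar and the SD as a whisker. In Gfap, Serpina3n, Lcn2, Cp and Osmr every Rnaseh2b/Atm library lies above every other library. The share of all genes standing apart in this way was not counted, and 63.6% of tested genes were called against Control. Serpina3n splits into separate levels in Rnaseh2b and Control.

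Each single genotype at P28 was then set against the same 5 Control libraries, which these comparisons share with that of the double genotype. In Rnaseh2b, 0 of 9 members were called by limma, where 5.21% of all genes were called and 4291 of them had an unadjusted p under 0.05. The nearest to the threshold was Cp, at 4.44, 4.40, 4.27, 4.28 and 4.23 log2 CPM in Rnaseh2b, a difference of 0.21 ± 0.07 (limma adjusted p = 0.0868). Gfap differed by 0.49 ± 0.22 (limma adjusted p = 0.166) and Osmr by 0.26 ± 0.10 (limma adjusted p = 0.135), with 4 of 5 and 5 of 5 Rnaseh2b libraries above the Control mean. In libraries labelled Atm, 0 of 9 were called by limma, where 1.86% of all genes were called and 2832 had an unadjusted p under 0.05. Serpina3n differed by 1.57 ± 0.71 (limma adjusted p = 0.267) and Vim by -0.32 ± 0.13 (limma adjusted p = 0.235). Without Control replicate 2, 1 member was called in Rnaseh2b, and without Atm replicate 3, 1 was called in libraries labelled Atm.

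The interaction term asks whether the double genotype departs from the sum of both single differences, with groups taken as labelled. Mean Atm RNA was 4.05 log2 CPM in Rnaseh2b/Atm, but 4.79 in libraries labelled Atm and 4.83 in Control. Whether both Atm labels stand for the same Atm state was not tested, so the term cannot be read as synergy of both losses. The term was called for 4 of 9 members, 3 higher and 1 lower, where 37.7% of all genes were called, 18.7% higher and 19% lower. Gfap exceeded the sum by 1.68 ± 0.31 on the log2 scale (limma adjusted p = 0.000343). Cp exceeded it by 1.04 ± 0.10 (limma adjusted p = 5.45e-07) and Hspb1 by 1.48 ± 0.34 (limma adjusted p = 0.00204). For Hspb1 the single differences from Control were negative and that of the double genotype positive, but none of them was called. Cd44 fell below the sum by -0.53 ± 0.18 (limma adjusted p = 0.0285), a call that was lost without Control 4, Rnaseh2b 3, Rnaseh2b/Atm 1 or Rnaseh2b/Atm 5 (limma adjusted p of 0.051 to 0.0575). For Serpina3n the term was 1.87 ± 0.997 (limma adjusted p = 0.151), for Osmr 0.29 ± 0.15 (limma adjusted p = 0.126), for Timp1 0.29 ± 0.20 (limma adjusted p = 0.267) and for Stat3 0.12 ± 0.06 (limma adjusted p = 0.117).

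At 9 weeks the question was whether the Rnaseh2b genotype alone differed from Control in adult cerebellum. Gfap rose and was the only called member of 8 tested, where 20.2% of all 15078 genes were called and 10.6% were higher. That count is near the background. Summed microglia genes were at 196 to 272 CPM in Rnaseh2b against 151 to 189 in Control, and their part was not tested. Gfap had 6.84, 7.42, 7.18, 6.87, 7.37, 7.05 and 7.43 log2 CPM in Rnaseh2b against 6.21 to 6.66 in Control, median 6.42. The groups did not overlap. The log2 difference was 0.71 ± 0.10, a 1.64-fold rise (limma adjusted p = 0.000424). Sample codes in the labels fall into runs 11 to 16 and 50 to 58, with 3 and 4 libraries of each genotype. In the deposited table the mean of each gene is the same in both runs, to within 3.12e-09 log2 CPM, so levels can be compared within a run but not between runs, and the spread over all 7 libraries is not that of unadjusted values. Gfap differed by 0.67 within the first (limma adjusted p = 0.0319) and by 0.74 within the second (limma adjusted p = 0.0341).

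The other members at 9 weeks did not pass. Osmr had a lowest, median and highest value of 2.03, 2.42 and 2.86 log2 CPM in Rnaseh2b and 1.85, 2.17 and 2.35 in Control, a difference of 0.25 ± 0.11 (limma adjusted p = 0.109). Stat3 differed by 0.10 ± 0.05 (limma adjusted p = 0.184) and Hspb1 by 0.21 ± 0.12 (limma adjusted p = 0.203). Vim, Cp and Cd44 differed by 0.04 ± 0.09, 0.03 ± 0.09 and -0.06 ± 0.11, with limma adjusted p of 0.784, 0.823 and 0.73. The median over the 8 was 0.07, against 0.00255 over all genes. Timp1 was under the filter, and with no filter differed by -0.20 ± 0.39 (limma adjusted p = 0.748).

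Serpina3n at 9 weeks was again spread over separate levels, this time in Rnaseh2b only. In codes 11 to 16 it had 5.06, 2.56 and 2.88 log2 CPM in Rnaseh2b, against 3.95, 4.04 and 3.85 in Control. In codes 50 to 58 it had 4.40, 1.62, 4.62 and 1.88 in Rnaseh2b, against 4.13, 4.48, 4.38 and 4.27 in Control. Within each run the Rnaseh2b libraries lay on both sides of the Control range, and since the run means were made equal, the low and high levels themselves cannot be compared between runs. The difference was -0.87 ± 0.45 (limma adjusted p = 0.176). Within each run the 2 Rnaseh2b libraries with the lowest Serpina3n, replicates 2 and 3 and replicates 5 and 7, had the highest Gfap, at 7.42, 7.18, 7.37 and 7.43. That ordering rests on few libraries, was not a planned comparison and was not tested.

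**Figure D2:**
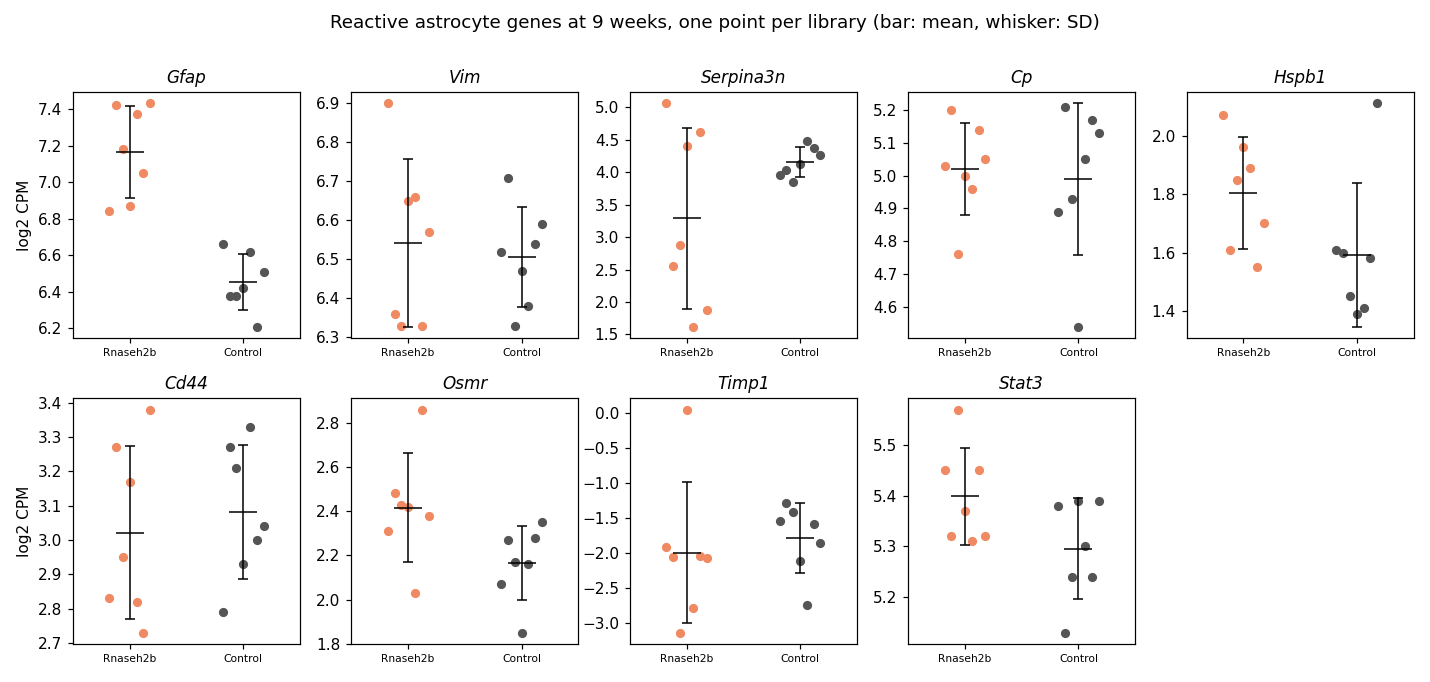
Log2 CPM of the 9 genes in the table at 9 weeks, 1 point per library, for Rnaseh2b and Control (7 libraries each), with the group mean as a bar and the SD as a whisker. Both runs of sample codes are pooled, after their means were made equal. Among the genes shown, Gfap is the 1 whose pooled groups do not overlap, a trait not counted over all genes. Serpina3n ranges from 1.62 to 5.06 in Rnaseh2b, but these ends come from different runs and cannot be compared.

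At P5, in the week when granule cell progenitors still divide, Rnaseh2b/Atm cerebellum showed a smaller set. Of 9 members tested, 3 rose against Control, where 9.86% of 15421 genes were called and 6.48% were higher. They were Hspb1, Cp and Osmr. Set against libraries labelled Atm, 4 rose, Hspb1, Cp, Osmr and Vim, where 9.50% of genes were called and 7.48% were higher. Both shares of members were above the background, but this is no test of the set. Members were chosen with earlier results of these data known. With only the compared groups in the fit the counts fell to 0 and 1. The number of all genes called against Control itself ran from 42 to 6380 under the alternatives. Summed microglia genes were at 271 to 306 CPM in Rnaseh2b/Atm against 183 to 205 in Control, and muscle genes at 37.9 to 82.1 against 19.3 to 23.6, and their part was not tested. The median over the 9 was 0.57 against Control and 0.54 against libraries labelled Atm, against 0.00667 and -0.0163 over all genes.

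Hspb1 was the clearest of them. It had 2.67, 2.87, 2.64 and 2.26 log2 CPM in Rnaseh2b/Atm, 1.97, 2.11 and 2.27 in Rnaseh2b, 1.18, 1.46 and 1.56 in libraries labelled Atm, and 1.42, 1.52 and 1.60 in Control. No Rnaseh2b/Atm library overlapped Control or the libraries labelled Atm. It rose 2.14-fold against Control (1.10 ± 0.15, limma adjusted p = 0.000631) and 2.31-fold against libraries labelled Atm (1.21 ± 0.15, limma adjusted p = 0.000236). In Rnaseh2b the ranges did not overlap Control either, but the difference of 0.60 ± 0.16 was not called (limma adjusted p = 0.102). Rnaseh2b/Atm against Rnaseh2b gave 0.50 ± 0.15 (limma adjusted p = 0.0993).

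Osmr and Cp rose by less. Osmr had 3.02, 3.03, 2.75 and 2.38 log2 CPM in Rnaseh2b/Atm, 2.54, 2.92 and 2.86 in Rnaseh2b, and 2.22, 2.05 and 2.50 in Control. The lowest Rnaseh2b/Atm library lay inside the Control range. The difference from Control was 0.54 ± 0.14 (limma adjusted p = 0.0274) in Rnaseh2b/Atm and 0.51 ± 0.15 in Rnaseh2b, which was not called (limma adjusted p = 0.147). Cp had 4.59, 5.12, 5.06 and 4.58 log2 CPM in Rnaseh2b/Atm against 4.69, 4.07 and 3.91 in Control, overlapping at Control replicate 1. Its difference was 0.61 ± 0.18 (limma adjusted p = 0.0389), and 0.70 ± 0.18 against libraries labelled Atm (limma adjusted p = 0.0189).

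Vim had 8.46, 8.34, 8.46 and 8.17 log2 CPM in Rnaseh2b/Atm, against 6.63, 7.80 and 7.80 in libraries labelled Atm. The groups did not overlap, and Atm replicate 1 lay far below the others. Vim rose by 0.95 ± 0.26 (limma adjusted p = 0.0299). Without Atm replicate 1 the difference was 0.56 and was not called (limma adjusted p = 0.104). The call was also lost without Rnaseh2b/Atm replicate 1, 2 or 3 (limma adjusted p of 0.0682 to 0.0715) and when the other groups were left out of the fit (limma adjusted p = 0.14). In Control it was 8.29, 7.14 and 7.72, which reached the Rnaseh2b/Atm range, and the difference of 0.64 ± 0.26 was not called (limma adjusted p = 0.124). Gfap at P5 had 7.66, 8.16, 7.84 and 7.51 log2 CPM in Rnaseh2b/Atm against 6.91, 7.12 and 7.65 in Control, and its difference of 0.57 ± 0.20 missed the threshold (limma adjusted p = 0.0815). Cd44, Timp1 and Stat3 differed by 0.11 ± 0.20, 0.50 ± 0.31 and 0.02 ± 0.05 with limma adjusted p of 0.747, 0.301 and 0.806. Lcn2, at 1 to 75 reads per library, was under the filter. With no filter on low values it differed from Control by -1.96 ± 0.84, opposite in sign to P28 and not called (limma adjusted p = 0.157).

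The P5 Rnaseh2b/Atm calls depended on few libraries. Against Control, the 3 calls became 0 when the other groups were left out of the fit, and 1 without Rnaseh2b/Atm replicate 2 or replicate 3 or with Xist as a covariate. Xist was high in 3 of 3 Control libraries and in 2 of 4 Rnaseh2b/Atm libraries, and its part was not tested further. Against libraries labelled Atm, the 4 calls became 1 when the other groups were left out of the fit, and 2 without Rnaseh2b/Atm replicate 2 or 3. Hspb1 kept its call against libraries labelled Atm under all 16 alternatives, and against Control under 15 of 16, with limma adjusted p of 0.051 at most.

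At P5, Gfap and Hspb1 were lower in Rnaseh2b/p53 than in Rnaseh2b. That comparison called 2 of 9 members, both lower, where 3.02% of genes were called and 1.91% were lower. Gfap had 7.20, 6.81, 6.60 and 6.69 log2 CPM in Rnaseh2b/p53 against 7.51, 7.73 and 7.61 in Rnaseh2b, and fell by 0.79 on the log2 scale (SE 0.20, limma adjusted p = 0.0428). Hspb1 had 1.60, 1.28, 1.47 and 1.02 in Rnaseh2b/p53 against 1.97, 2.11 and 2.27 in Rnaseh2b, and fell by 0.77 (SE 0.15, limma adjusted p = 0.0133). Neither gene overlapped between the groups. Summed medulla and pons genes were at 6.12 to 28.9 CPM in Rnaseh2b/p53 against 46.4 to 135 in Rnaseh2b, though 0 of 12 tested were called. Of 15 microglia genes 5 fell, of 12 meningeal genes 3 fell, and of 12 endothelial and pericyte genes 4 fell and 1 rose. The part of these lists in the falls of Gfap and Hspb1 was not tested. The count was 0 without Rnaseh2b replicate 3, and 1 without Rnaseh2b replicate 1 or 2 or without Rnaseh2b/p53 replicate 2, 3 or 4. The interaction of Rnaseh2b and p53 called 0 of 9 members by limma, where 0.00648% of genes, a single gene, were called. An unadjusted p under 0.05 was seen in 1011 genes. That term was -0.18 ± 0.29 for Gfap and -0.63 ± 0.22 for Hspb1 (limma adjusted p = 0.981 and 0.493). In p53 against Control, Gfap differed by -0.61 ± 0.21 and Hspb1 by -0.14 ± 0.16, neither called (limma adjusted p = 0.559 and 0.965). Gfap ran from 6.45 to 6.76 log2 CPM in p53 libraries, which lack the Rnaseh2b genotype, against 6.91 to 7.65 in Control. These ranges did not overlap, but the difference was not called.

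Against Control, neither p53 genotype called a member by limma. In p53, 0 of 9 were called where 0.175% of genes were, with 913 at an unadjusted p under 0.05. In Rnaseh2b/p53, 0 of 9 were called where 0.428% were, with 1316 at an unadjusted p under 0.05. Serpina3n was at its low level in all 7 of these libraries, 1.35 to 2.07 log2 CPM in Rnaseh2b/p53 and 1.29 to 1.5 in p53, against 1.72, 4.02 and 3.54 in Control. The differences of -1.41 ± 0.41 and -1.70 ± 0.44 were not called (limma adjusted p = 0.18 and 0.19), though without Control replicate 1, the low one, 1 member was called in each comparison. Rnaseh2b/p53 against p53 called 0 of 9 where 0.188% of genes were called and 607 had an unadjusted p under 0.05.

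The remaining P5 comparisons called no member by limma. Rnaseh2b against Control had 0 of 9, where 0.681% of genes were called and 2043 had an unadjusted p under 0.05. Libraries labelled Atm against Control had 0 of 9, where 0% of genes were called and 435 had an unadjusted p under 0.05. Rnaseh2b/Atm against Rnaseh2b had 0 of 9, where 2.04% were called and 3509 had an unadjusted p under 0.05. Serpina3n was the nearest in that comparison, with 3.98, 4.23, 3.59 and 3.83 log2 CPM in Rnaseh2b/Atm against 2.03, 3.20 and 2.36 in Rnaseh2b, a difference of 1.38 ± 0.41 (limma adjusted p = 0.0949). The interaction of Rnaseh2b and Atm called 0 of 9 and 0% of genes, with 884 at an unadjusted p under 0.05. Limma voom on recovered reads also called 0 members in each P28 and P5 comparison in which limma called 0, apart from P5 Rnaseh2b/Atm against Rnaseh2b with 1.

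**Figure D3:**
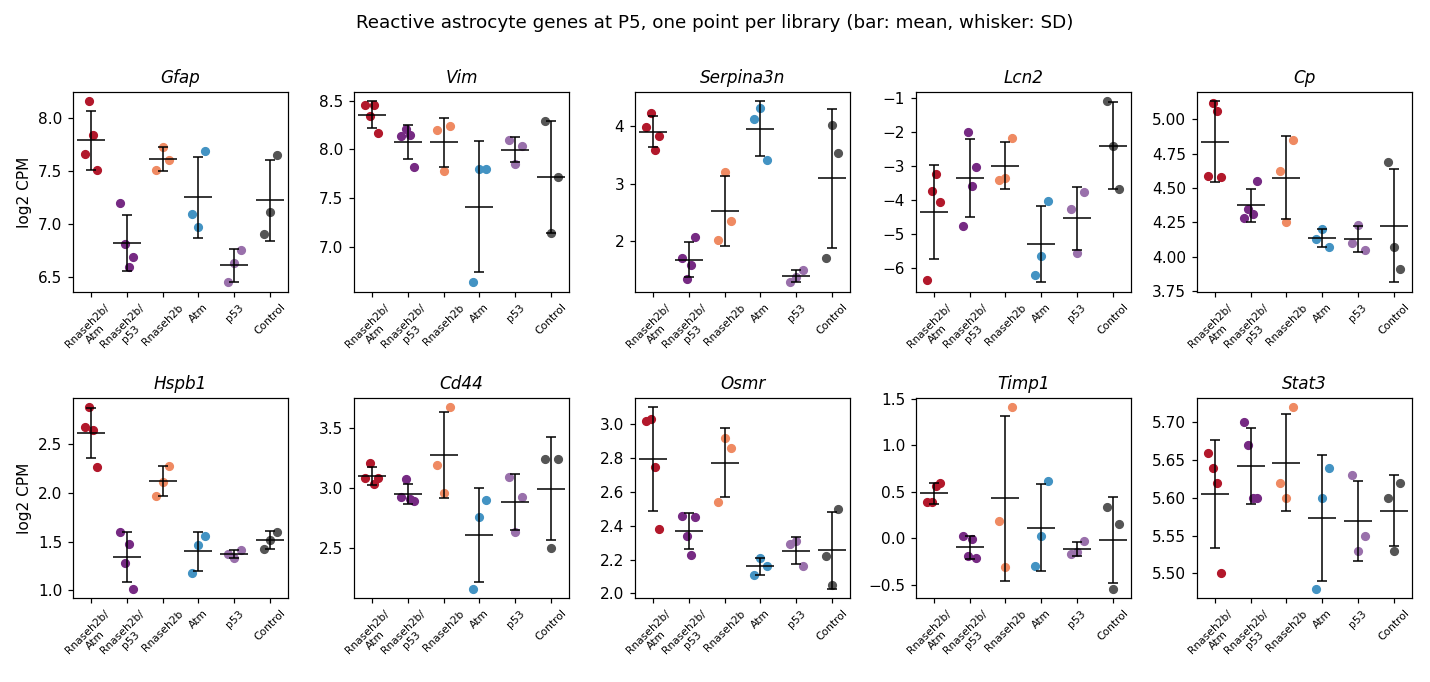
Log2 CPM of the 10 genes at P5, 1 point per library, for Rnaseh2b/Atm (4), Rnaseh2b/p53 (4), Rnaseh2b (3), Atm (3), p53 (3) and Control (3), with the group mean as a bar and the SD as a whisker. Hspb1 is highest in Rnaseh2b/Atm (2.26 to 2.87), and Serpina3n is low in every p53 and Rnaseh2b/p53 library (1.29 to 2.07).

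**Figure D4:**
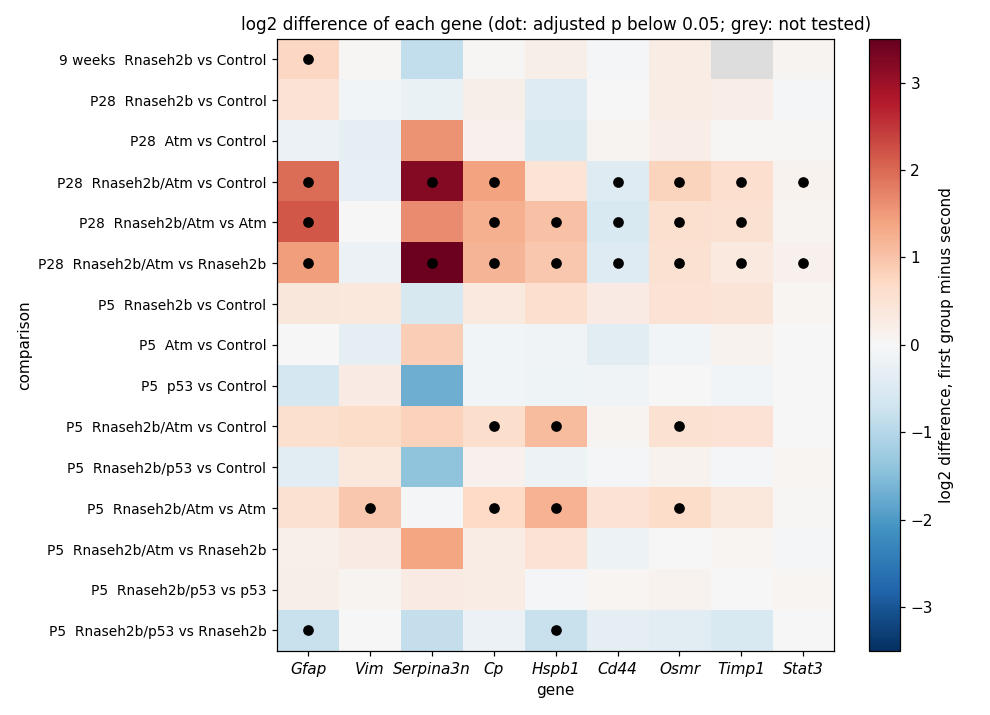
Log2 difference (colour, first group minus second) of the 9 tested genes in 15 comparisons, with a dot where the limma adjusted p was below 0.05 and grey where a gene was not tested. Calls gather in the 3 P28 rows of Rnaseh2b/Atm, in which Cd44 is lower and Vim carries no dot.

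Serpina3n levels were set beside those of Serpina3m, a paralog in the same gene cluster on chromosome 12, chosen after its values were seen. Reads can be shared between such close copies, so both are uncertain. At P28 Serpina3m had 323, 204, 215, 99 and 137 reads in Rnaseh2b/Atm, 0, 62, 0, 0 and 84 in Rnaseh2b, 43, 30, 75, 57 and 51 in libraries labelled Atm, and 1, 0, 34, 91 and 64 in Control. The 5 libraries with low Serpina3n were the 5 with 0 or 1 Serpina3m read. At P5 Serpina3m had 28 to 68 reads in the 9 libraries with Serpina3n at 3.42 log2 CPM or more, apart from Control replicate 2 with 21, and 0 to 3 in the other 11. At P28 both Control and Rnaseh2b held libraries at either level, while every library labelled Atm and every Rnaseh2b/Atm library was high. At P5 every library labelled Atm and every Rnaseh2b/Atm library was high in Serpina3m. Every Rnaseh2b, p53 and Rnaseh2b/p53 library was low there, and Control held both levels. In groups that hold a single level, that level and the genotype cannot be told apart. What sets the level was not tested.

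**Figure D5:**
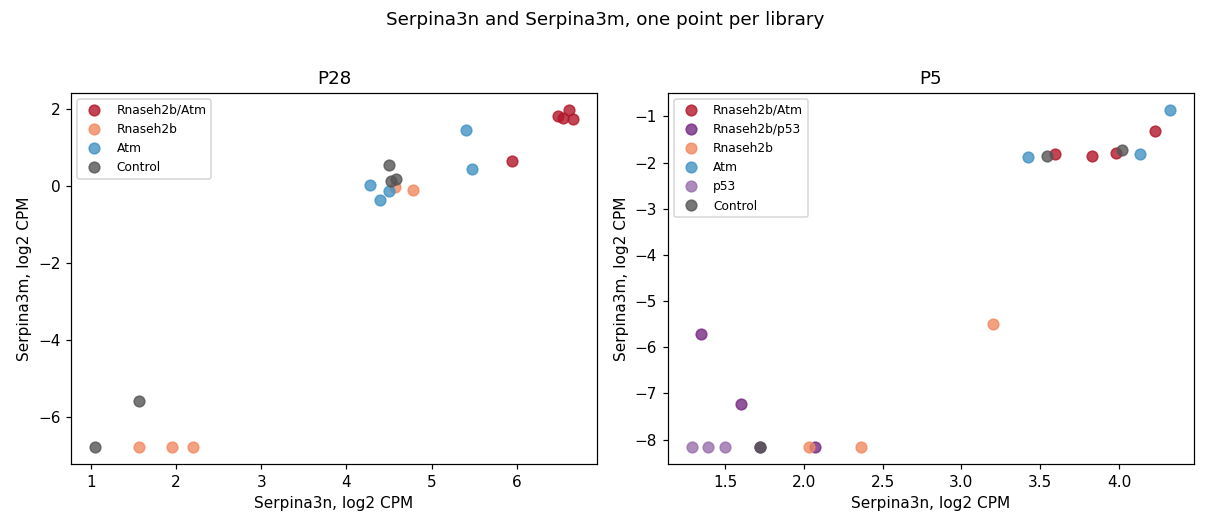
Log2 CPM of Serpina3n (horizontal) against Serpina3m (vertical), 1 point per library, coloured by genotype, at P28 (left) and P5 (right). Libraries form a low cluster with Serpina3m near 0 reads and a high cluster, and the Rnaseh2b/Atm libraries at P28 lie at the top of the high one, at 5.94 to 6.66 for Serpina3n.

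Other genes linked to reactive astrocytes were counted in the P28 comparison of Rnaseh2b/Atm with Control. Of 9 further genes of the pan-reactive list, 6 rose and 3 fell. Their median log2 difference was 0.71, while the summed level of the list was lower, at 282 to 321 CPM in Rnaseh2b/Atm against 327 to 364 in Control. S1pr3, a sphingosine-1-phosphate receptor, rose by 1.44 ± 0.10 (limma adjusted p = 9.2e-10) and Aspg by 1.49 ± 0.13 (limma adjusted p = 8.03e-09), while Tnc, the matrix protein tenascin C, fell by 0.96 (SE 0.10, limma adjusted p = 1.87e-07). Of 11 genes of the A1 list, named for astrocytes after inflammatory stimulation, 9 rose and 1 fell, median 0.81. Fbln5 rose by 1.55 ± 0.16 (limma adjusted p = 8.94e-08) and Serping1, the complement C1 inhibitor, by 0.78 ± 0.09 (limma adjusted p = 2.31e-07). Of 9 genes of the A2 list, named for astrocytes after ischaemia, 6 rose and 1 fell, median 0.79. Sphk1, a sphingosine kinase, rose by 1.28 ± 0.11 (limma adjusted p = 1.26e-08) and Emp1 by 1.85 ± 0.18 (limma adjusted p = 3.54e-08). All 3 counts stand against 31.5% of all genes called higher and 32.1% lower, and the lists were not tested against one another.

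The interleukin-6 family and Stat3 pathway was mixed. Of 15 genes beside Osmr and Stat3, 6 rose and 3 fell, median 0.10, where 31.5% of all genes were higher and 32.1% lower. The receptor subunits Lifr, Il6st (gp130) and Il6ra rose by 0.80 ± 0.09, 0.42 ± 0.05 and 1.04 ± 0.16, with limma adjusted p of 2.32e-07, 2.75e-07 and 1.95e-05. Pias3, an inhibitor of activated Stat3, fell by 0.50 (SE 0.07, limma adjusted p = 2.62e-06). At 9 weeks 1 of 14 rose, where 10.6% of all genes did, Il6st by 0.25 ± 0.04 (limma adjusted p = 0.00101), and Il11ra1 fell. At P5 in Rnaseh2b/Atm against Control 2 of 16 rose, where 6.48% of all genes did, Il6st by 0.26 ± 0.06 (limma adjusted p = 0.0181) and Il6ra by 0.45 ± 0.12 (limma adjusted p = 0.0274).

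General astrocyte and Bergmann glia genes were counted in the same way. At P28 in Rnaseh2b/Atm, 9 of 16 rose and 4 fell, median 0.30, where 31.5% of all genes were higher and 32.1% lower. Their summed level was 7730 to 8960 CPM against 6590 to 7120 in Control. Gjb6, the astrocyte connexin 30, rose by 1.22 ± 0.08 (limma adjusted p = 1.82e-10), while S100b fell by 0.63 (SE 0.07, limma adjusted p = 1.43e-07). At 9 weeks 5 of 16 rose and 0 fell, where 10.6% of all genes were higher, with a summed level of 6610 to 7440 CPM in Rnaseh2b against 6060 to 6330 in Control. Aqp4, the water channel of astrocyte endfeet, rose there by 0.46 ± 0.06 (limma adjusted p = 0.000267). Of the A1 list 4 of 11 rose at 9 weeks against the same 10.6%, median 0.26, among them Amigo2 (0.56 ± 0.11, limma adjusted p = 0.00305) and H2-D1 (0.35 ± 0.08, limma adjusted p = 0.00727).

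Markers of other cells and of neighbouring tissue also moved, and their part in the results beside them was not tested. Called higher over all genes were 31.5% at P28, 10.6% at 9 weeks and, at P5, 6.48% against Control and 7.48% against libraries labelled Atm. At P28 in Rnaseh2b/Atm against Control, 12 of 12 meningeal and fibroblast genes rose (median log2 difference 1.16) and 13 of 15 microglia genes rose (median 0.71). Of 12 endothelial and pericyte genes 10 rose, with a summed level of 450 to 520 CPM in Rnaseh2b/Atm against 360 to 383 in Control. Of 12 oligodendrocyte genes 9 fell and 1 rose, with 3160 to 9150 CPM against 8800 to 9720. The choroid plexus sum ranged from 330 to 3100 CPM against 32.8 to 651, with 2 of 10 genes called, both higher. Of 7 midbrain genes 5 rose and 1 fell. Th, the enzyme that makes the dopamine precursor, rose by 7.10 ± 0.24 (limma adjusted p = 3.53e-14). Otx2 stands in both the midbrain and the choroid plexus lists. Of 7 ependymal genes 3 rose and 1 fell, of 6 muscle genes 3 rose and 1 fell, of 5 neutrophil and blood genes 3 fell, of 9 granule progenitor genes 4 fell, and the 1 tested medulla and pons gene rose.

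At 9 weeks in Rnaseh2b against Control, 11 of 15 microglia genes rose (median 0.53), as did 8 of 12 oligodendrocyte, 4 of 12 meningeal and 2 of 12 endothelial genes, with none of these lists holding a gene that fell. At P5 in Rnaseh2b/Atm against Control, 12 of 15 microglia genes rose (median 0.66), as did 5 of 12 meningeal, 4 of 8 ependymal and 5 of 9 muscle genes. Against libraries labelled Atm at P5, 8 of 10 choroid plexus genes rose, with 1360 to 2250 CPM in Rnaseh2b/Atm against 46.4 to 1020 in libraries labelled Atm. Cp and Vim, which rose in that comparison, are expressed in choroid plexus too.

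The genes whose levels tracked Gfap most closely were listed as a description. Over the 20 P28 and 14 9-week libraries, taken separately, the 5 of 12622 genes with the highest lower correlation were Npy1r (Pearson r 0.945 at P28 and 0.927 at 9 weeks), Vit (0.933 and 0.921), Unc5d (0.911 and 0.901), Robo2 (0.88 and 0.893) and Acss1 (0.893 and 0.876). These points share genotype groups, so a gene that moves with genotype tracks Gfap. For Serpina3n the 5 were Ccdc88c (0.725 and 0.627), Lama2 (0.631 and 0.613), Dera (0.694 and 0.598), Stt3b (0.606 and 0.593) and Gypc (0.604 and 0.571). No other member was among either 5.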

How the data were processed

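Whole cerebellum RNA was extracted with TRIzol and made into TruSeq stranded libraries read on an Illumina HiSeq, per the labels' protocols. The tools HTSeq, limma, STAR, BWA and Trim Galore and the mm9 build are named, per the submitters' processing notes, with roles and versions not given in the sources used here. The authors deposited log2 CPM values per gene and FPKM values, which at 9 weeks hold 30976 values below 0 and were treated as a score, per the deposited values. Table columns were tied to libraries through their titles, and 0 columns were left over.

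The log2 CPM values were fitted as deposited with limma 3.58.1 in R 4.3.3 (variance trend, all groups of an age together), on genes at 1 CPM in at least 7, 5 and 3 libraries at 9 weeks, P28 and P5. P-values were Benjamini-Hochberg adjusted over all tested genes and called below 0.05. Whole reads were recovered at P28 and P5 (100% of values within 0.01 of a whole number), and limma voom on them was an alternative, as were log2 FPKM plus 0.1 or 1, no filter, quantile normalization, Xist or replicate covariates, fewer groups, and single libraries left out. At P5, 3 rows naming no gene (19.7% to 31.8% of reads) were left out. No 2 libraries of a group at P28 or P5 were copies: chi-square over its degrees of freedom was at least 9.64. The fits were tested on simulated data. All 10 members are named, and up to 4 called genes of each other list, by smallest adjusted p. Members and lists were chosen with earlier results of these data known. Figures were drawn with matplotlib 3.10.9.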

Additional observations from a re-analysis of the deposited data

Results flagged for a closer look

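Of 78 groups of 4 to 10 libraries tested, 6 had a library standing apart by Dixon's criterion, which chance gives in about 1 in 20 groups. At 9 weeks Hspb1 in Control replicate 7 was the highest of its group at 2.11 log2 CPM, and Timp1 in Rnaseh2b replicate 4 was the highest at 0.05. At P28 Serpina3n in Rnaseh2b/Atm replicate 4 was the lowest at 5.94, Hspb1 in Rnaseh2b replicate 4 the highest at 2.21 and Timp1 in Atm replicate 2 the highest at 0.57. At P5 Cd44 in Rnaseh2b/p53 replicate 2 was the highest at 3.07.

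The effect of the Rnaseh2b genotype at P28 differed with and without the Atm label for 4 members, by the limma interaction term. Over all tested genes 37.7% were called for that term, so the count of members is near the background. Atm RNA was lower than Control in Rnaseh2b/Atm libraries but not in those labelled Atm. The term was 1.68 for Gfap, 1.04 for Cp, 1.48 for Hspb1 and -0.53 for Cd44 on the log2 scale. The limma adjusted p values were 0.000343, 5.45e-07, 0.00204 and 0.0285. The Cd44 call was lost when any 1 of 4 libraries was left out (limma adjusted p of 0.051 to 0.0575).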

How the results depend on the processing

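No direction of a called member reversed under any alternative run. Gfap kept its call at 9 weeks under 9 of 9 alternatives. Gfap and Cp kept every P28 call of Rnaseh2b/Atm under 18 of 18, and Serpina3n both of its calls. The counts of called members moved as follows. P28 Rnaseh2b and P28 Atm against Control, at 0, gave 0 to 1 when single libraries were left out. With only both groups in the fit P5 Rnaseh2b/Atm gave 0 against Control, 1 against Atm and 1 against Rnaseh2b. With Xist as a covariate it gave 1 against Control. Against Rnaseh2b it gave 1 with voom on recovered reads and 2 without Control 2 and Atm 1. Leaving out single libraries gave 1 to 3 against Control, 2 to 4 against Atm, 0 to 1 against Rnaseh2b (1 without Rnaseh2b/Atm replicate 4), 0 to 2 for Rnaseh2b/p53 against Rnaseh2b, and 0 to 1 for Rnaseh2b/p53 and for p53 against Control. The causes were not tested.

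Replicate numbers did not pair the samples, since correlations of same-numbered deviations ran from -0.587 to 0.553. With the replicate block P5 Rnaseh2b against Control gave 1 called member instead of 0, Rnaseh2b/Atm against Rnaseh2b 1 instead of 0, and Rnaseh2b/p53 against Rnaseh2b 1 instead of 2. P5 Rnaseh2b/Atm against Control gave 2 instead of 3 under the block, without Cp (limma adjusted p = 0.0767). At P28 the block gave 9 instead of 7 for Rnaseh2b/Atm against Control, and 7 instead of 8 against Rnaseh2b, without Timp1 (limma adjusted p = 0.0635).

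Counts over all genes, which set the background, held for Rnaseh2b/Atm at P28 and were less stable elsewhere. At P28 Rnaseh2b/Atm called 10506 against Control (9887 to 11668), 10082 against Atm (9352 to 11297) and 8188 against Rnaseh2b (7490 to 8903). At 9 weeks 3042 genes were called, 1390 with the replicate block and 90 to 3084 under the alternatives, the lowest with codes 50 to 58 alone. At P28 Rnaseh2b against Control called 861 and 187 to 2564 with single libraries left out, and Atm 308 and 185 to 1102, both highest without Control replicate 2. P5 Rnaseh2b/Atm called 1520 against Control (42 to 6380), 1465 against Atm (343 to 3502) and 314 against Rnaseh2b (77 to 3566). P5 Rnaseh2b against Control called 105 (0 to 251), p53 27 (3 to 37), Rnaseh2b/p53 66 (20 to 190) and 29 against p53 (6 to 61), and Rnaseh2b/p53 against Rnaseh2b ran from 37 to 1140. Lcn2 is limited by depth, at 1 to 75 reads per library.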
